A study of Mus musculus with 8 samples.

Results

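The TGF-β genes described here were 10 genes measured in bone marrow-derived macrophages (BMDMs), out of 49315 genes with a deposited count. They were chosen by name, through the gene symbols that GENCODE M21 gives to the Ensembl identifiers: the ligand Tgfb1, the receptors Tgfbr1 and Tgfbr2, the signal transducers Smad2, Smad3 and Smad4, the inhibitory Smad7, the nuclear corepressors Ski and Skil, and Tgfbi. The last of these is an extracellular matrix protein named for its induction by TGF-β, so it belongs to the output of the pathway and not to its machinery.

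BMDMs are primary macrophages, grown here from the marrow of C57BL/6 mice with 10 ng/ml of M-CSF, the growth factor that drives macrophage differentiation. Cells of 4 libraries (replicates 2, 5, 6 and 7) were transfected by Lipofectamine with a negative control gapmeR at 25 nM, and cells of 4 libraries (replicates 9, 11, 13 and 15) with a gapmeR against MAARS at the same dose. A gapmeR is an antisense oligonucleotide through which RNase H cuts the RNA it pairs with, and MAARS is a long noncoding RNA annotated as Gm14461. All cells thus carried an oligonucleotide and transfection reagent, and no untransfected cells were analysed here. The labels do not say that the libraries of a group came from separate mice or cultures, so the p-values measure the spread between these samples, which may be technical.

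TGF-β is secreted as a latent dimer held in the matrix or on the cell surface, and is active only once released. The active ligand binds TGFBR2, a kinase that phosphorylates TGFBR1, which in turn phosphorylates SMAD2 and SMAD3, and these enter the nucleus with SMAD4 to change transcription. SMAD7 is induced by the pathway and turns the receptors off, whereas SKI and SKIL (also called SnoN) bind the SMADs on DNA and repress their targets. In macrophages TGF-β is known for restraining inflammatory genes and for sustaining the identity of some resident populations.

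Library totals ran from 19287279 to 24541205 counts on genes, and each MAARS gapmeR library held more counts than each control library. The target, MAARS, fell from 13.1 ± 1.36 to 6.82 ± 0.845 CPM (counts divided by library total and TMM factor, mean ± SD, n = 4 per group), with a log2 fold change of -0.95 (SE 0.112, adjusted p = 5.8e-05, quasi-likelihood test of edgeR, Benjamini-Hochberg, as for all adjusted p-values below unless another test is named). At an adjusted p under 0.05, 5919 of 13051 genes tested were called, 45.4% of them, with 2782 (21.3%) higher and 3137 (24%) lower with the MAARS gapmeR. The 2 groups of 4 libraries did not overlap for 42.1% of the genes tested. Macrophage markers (Adgre1, Csf1r, Itgam, Cd68, Fcgr1, Lyz2 and Cd14) summed to 13594 to 16866 CPM in control and 16756 to 19927 CPM in MAARS gapmeR libraries, with 4 of 7 called higher and 2 lower. The sum was mostly Lyz2, which rose from 9402 to 13170 CPM, whereas Fcgr1 fell from 808 to 190 CPM (log2 fold change -2.09) and Cd68 fell from 2162 to 1710 CPM. Summed lymphocyte markers stayed under 0.5 CPM in every library. Fibroblast markers were present at 460 to 1047 CPM in control and 720 to 1238 CPM in MAARS gapmeR libraries, mostly collagen, and 0 of the 6 tested were called by edgeR, DESeq2 or limma-voom (1 at an unadjusted edgeR p under 0.05). In such bulk samples, fewer cells of a type and less RNA per cell cannot be told apart.

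All 10 TGF-β genes passed the filter on low counts, and 7 were called: Tgfbr1, Smad4, Smad7 and Ski were higher and Smad2, Smad3 and Skil were lower with the MAARS gapmeR. This count of 4 higher and 3 lower is to be read against the 21.3% and 24% of all genes that were called in those directions. The same 7 genes were those whose groups did not overlap. The median log2 fold change of the 10 genes was 0.03, beside 0.01 for all genes tested. None of the 10 genes shares exonic bases with another annotated gene, so no annotated antisense or overlapping exon adds to their counts.

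**Figure D1:**
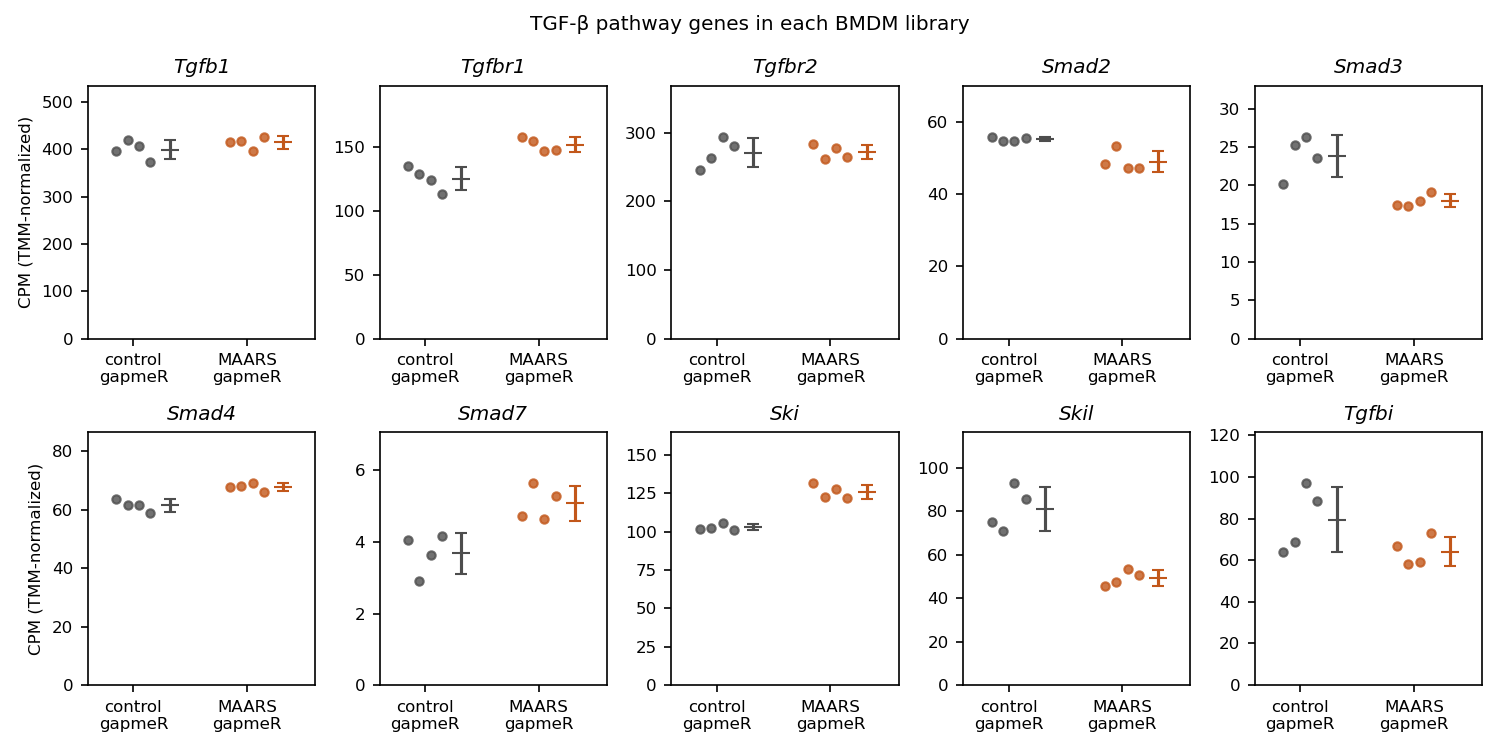
TMM-normalized CPM of the 10 TGF-β genes in each library, 1 panel per gene, with points for the 4 control and the 4 MAARS gapmeR libraries and, beside them, the group mean with its SD. Skil, Smad3 and Smad2 lay lower and Ski, Tgfbr1, Smad4 and Smad7 higher in all 4 MAARS gapmeR libraries, whereas the groups overlapped for Tgfb1, Tgfbr2 and Tgfbi.

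Divided by the merged exonic length of all annotated transcripts, the levels of these genes in control BMDMs spanned 97.0-fold. These levels and their span depend on the length used. For Tgfb1 the merged length is 5042 bases and the longest transcript 2573 bases. The ligand Tgfb1 was the most abundant, at 79.1 ± 3.98 CPM per kb (SD, n = 4), followed by Tgfbr2 at 33.1 ± 2.58 CPM per kb. Tgfbi, Tgfbr1 and Ski followed at 21.1 ± 4.18, 19.1 ± 1.42 and 18.5 ± 0.353 CPM per kb, and the ranges of Tgfbi and Tgfbr1, and of Tgfbr1 and Ski, overlapped over the libraries. Smad4 came next at 16.5 ± 0.56 CPM per kb, then Skil at 8.36 ± 1.04, Smad2 at 6.30 ± 0.0705 and Smad3 at 4.30 ± 0.491 CPM per kb. Smad7 was the least abundant, at 0.815 ± 0.127 CPM per kb. With the MAARS gapmeR Tgfbr1 (23.2 CPM per kb) and Ski (22.7 CPM per kb) stood above Tgfbi (17.0 CPM per kb), and Skil (5.08 CPM per kb) no longer stood above Smad2 (5.59 CPM per kb), with overlapping ranges for that last pair.

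Tgfb1 (ENSMUSG00000002603, chromosome 7, 25687002 to 25705077, plus strand of GRCm38, as for all positions here) encodes the TGF-β1 ligand. It was measured at 396, 420, 407 and 373 CPM in control replicates 2, 5, 6 and 7, and at 416, 418, 396 and 427 CPM in MAARS gapmeR replicates 9, 11, 13 and 15. The 2 groups overlapped. The log2 fold change was 0.05 (SE 0.0488, 95% confidence interval -0.05 to 0.16, adjusted p = 0.39). A change in ligand transcript above about 0.16 in log2 thus lay outside the interval of this fit. That bound moves with the processing, since the 7 other fits gave Tgfb1 0.05 to 0.12, none with a call. With a term for collagen, described below, Tgfb1 was at 0.10 (SE 0.0447, adjusted p = 0.0838). The other isoforms were scarce and missed the threshold, Tgfb2 at 4.90 and 6.64 CPM (adjusted p = 0.111) and Tgfb3 at 2.58 and 4.57 CPM (adjusted p = 0.0529) in control and MAARS gapmeR libraries.

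Of the 2 receptors, Tgfbr1 was higher and Tgfbr2 did not pass the test. Tgfbr1 (ENSMUSG00000007613, chromosome 4, 47353222 to 47414931, plus strand), the type I receptor kinase that phosphorylates SMAD2 and SMAD3, was at 135, 128, 124 and 113 CPM in the control libraries and at 158, 155, 147 and 147 CPM in the MAARS gapmeR libraries. All 4 MAARS gapmeR values lay above all 4 control values. The mean rose from 125.1 ± 9.28 to 151.7 ± 5.53 CPM, by 21.3% (log2 fold change 0.28, SE 0.0566, adjusted p = 0.00211). Tgfbr2 (ENSMUSG00000032440, chromosome 9, 116084293 to 116175360, minus strand), the ligand-binding type II receptor, was at 245, 263, 294 and 280 CPM in control and at 284, 262, 277 and 264 CPM in MAARS gapmeR libraries. These ranges overlapped, with means of 270.7 ± 21.2 and 271.7 ± 10.7 CPM and a log2 fold change of 0.01 (95% confidence interval -0.12 to 0.13, adjusted p = 0.947). The ratio of Tgfbr1 to Tgfbr2 within a library, in counts per kb, was 0.584 ± 0.084 in control and 0.700 ± 0.0316 in MAARS gapmeR libraries. This difference between the receptors missed the threshold, and the groups overlapped at 1 control library (log2 difference 0.27, two-sided exact permutation test, p = 0.0571, 0.0762 adjusted over 4 ratios).

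Both receptor-regulated SMADs of the TGF-β branch were lower. Smad3 (ENSMUSG00000032402, chromosome 9, 63646767 to 63757994, minus strand), which binds DNA directly, was at 20.2, 25.3, 26.4 and 23.5 CPM in control libraries and at 17.4, 17.3, 18.0 and 19.2 CPM in MAARS gapmeR libraries. The highest MAARS gapmeR value thus lay just below the lowest control value, that of replicate 2. Smad3 fell by 24.6% (log2 fold change -0.41, SE 0.0852, adjusted p = 0.00251). Smad2 (ENSMUSG00000024563, chromosome 18, 76241580 to 76310963, plus strand) was tightly grouped in control libraries at 56.1, 54.9, 54.7 and 55.5 CPM, and was at 48.5, 53.4, 47.2 and 47.2 CPM with the MAARS gapmeR. The groups did not overlap, but MAARS gapmeR replicate 11 stood close to the control values. Smad2 fell by 11.2% (log2 fold change -0.17, SE 0.0514, adjusted p = 0.018), a call that was lost with upper-quartile scaling (log2 fold change -0.11, adjusted p = 0.102). The ratio of Smad3 to Smad2 in counts per kb was 0.684 ± 0.0852 and 0.582 ± 0.0551, with overlapping groups (log2 difference -0.23, exact permutation p = 0.114, 0.114 adjusted over 4 ratios).

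Smad4 (ENSMUSG00000024515, chromosome 18, 73639009 to 73703780, minus strand), the common partner that the TGF-β and BMP branches share, moved the other way from Smad2 and Smad3. Its level was 63.7, 61.4, 61.7 and 58.7 CPM in control libraries and 67.8, 68.0, 69.1 and 65.8 CPM in MAARS gapmeR libraries, with no overlap. Smad4 rose by 10.2% (log2 fold change 0.14, SE 0.0438, adjusted p = 0.0217). The difference was small, and the call was lost with no filter on low counts (adjusted p = 0.105), without control replicate 7 (0.0666) and without MAARS gapmeR replicate 13 (0.0587).

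Smad7 (ENSMUSG00000025880, chromosome 18, 75367529 to 75395935, plus strand), the feedback inhibitor, was the least abundant of the genes, with counts of 79, 57, 67 and 85 in control libraries and 100, 142, 101 and 122 in MAARS gapmeR libraries. In CPM these were 4.04, 2.90, 3.62 and 4.17 against 4.73, 5.65, 4.64 and 5.29. All 4 MAARS gapmeR libraries lay above all 4 control libraries. Smad7 rose by 37.8% (log2 fold change 0.46, SE 0.143, 95% confidence interval 0.15 to 0.78, adjusted p = 0.0207). Its call was lost without control replicate 5 (log2 fold change 0.36, adjusted p = 0.0531) and without MAARS gapmeR replicate 11 (log2 fold change 0.41, adjusted p = 0.062). In counts per kb the ratio of Smad7 to Smad3 was 0.246, 0.141, 0.168 and 0.218 in control and 0.333, 0.400, 0.316 and 0.338 in MAARS gapmeR libraries. These groups did not overlap, a log2 difference of 0.87 or 1.83-fold, at the smallest p that 4 against 4 libraries allow (two-sided exact permutation test, p = 0.0286, 0.0571 adjusted over 4 ratios).

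The 2 corepressors, close relatives that can pair with each other, moved in opposite directions. Skil (ENSMUSG00000027660, chromosome 3, 31095058 to 31122577, plus strand) had the largest difference of the 10 genes. It was at 75.0, 70.7, 93.0 and 85.6 CPM in control libraries and at 45.5, 47.3, 53.5 and 50.8 CPM in MAARS gapmeR libraries. The highest MAARS gapmeR library stood well below the lowest control library. Skil fell by 39.2%, from 81.1 ± 10.1 to 49.3 ± 3.57 CPM (log2 fold change -0.72, SE 0.0855, adjusted p = 6.02e-05). SKIL is both a repressor of SMAD complexes and a transcript that TGF-β signalling is known to induce.

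Ski (ENSMUSG00000029050, chromosome 4, 155154075 to 155222592, minus strand) was at 102, 103, 106 and 101 CPM in control libraries and at 132, 123, 128 and 122 CPM in MAARS gapmeR libraries. The control values lay within 5 CPM of each other and all 4 MAARS gapmeR values lay above them. Ski rose by 22.6%, from 102.8 ± 1.96 to 126.1 ± 4.57 CPM (log2 fold change 0.29, SE 0.0421, adjusted p = 0.000212). The ratio of Skil to Ski in counts per kb was 0.423, 0.396, 0.505 and 0.484 in control and 0.198, 0.221, 0.240 and 0.239 in MAARS gapmeR libraries. No library of 1 group reached the other, with a log2 difference of -1.01 (two-sided exact permutation test, p = 0.0286, 0.0571 adjusted over 4 ratios). Because both counts come from the same library, the scaling of libraries does not enter these ratios, and none of the 4 passed 0.05 after adjustment. Only the ratios of Skil to Ski and of Smad7 to Smad3 had the smallest possible p, 0.0286. Their adjusted p could then not go below 0.0571, however far apart the groups lay.

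**Figure D2:**
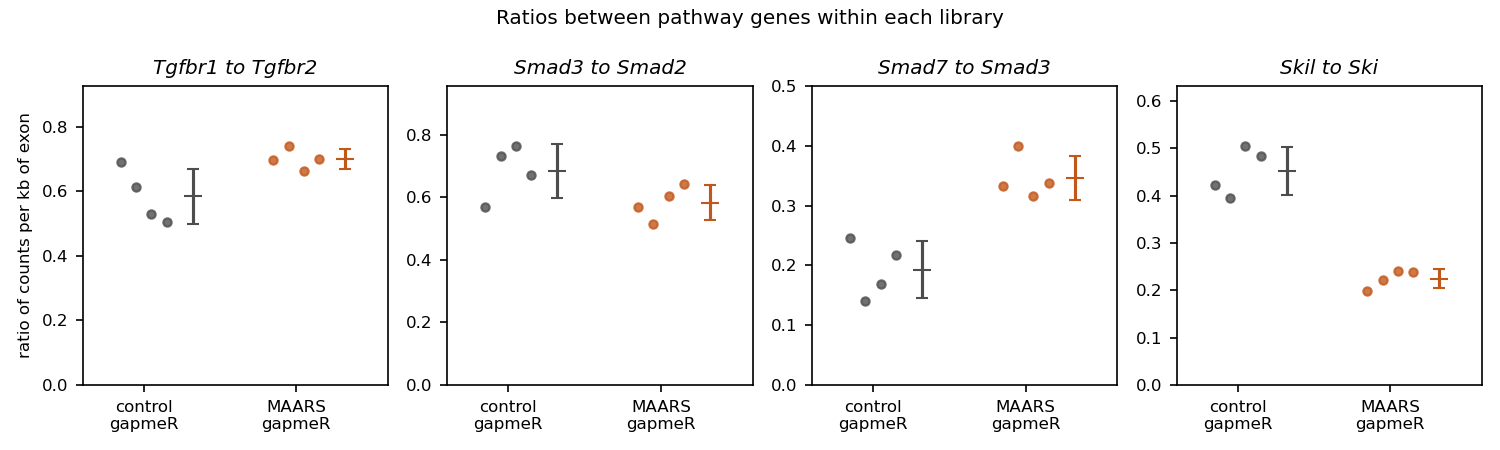
Ratios of counts per kb within each library for the 4 gene pairs (linear axis), with points for the control and MAARS gapmeR libraries and, beside them, the group mean with its SD. The mean ratio of Skil to Ski was 0.452 and 0.225, and that of Smad7 to Smad3 was 0.193 and 0.347, with no overlap, whereas the groups overlapped for the other two ratios.

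Tgfbi (ENSMUSG00000035493, chromosome 13, 56609523 to 56639562, plus strand), the matrix protein, varied most among control libraries relative to its mean, at 63.8, 68.9, 97.1 and 88.3 CPM. In MAARS gapmeR libraries it was at 66.8, 58.1, 59.0 and 72.9 CPM. The groups overlapped, and the difference missed the threshold (log2 fold change -0.31, SE 0.125, 95% confidence interval -0.58 to -0.04, adjusted p = 0.0633). It passed with DESeq2 (adjusted p = 0.0439) and with no filter on low counts (0.00683), and also without control replicate 2 (0.0162), control replicate 5 (0.0418) or MAARS gapmeR replicate 15 (0.046).

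**Figure D3:**
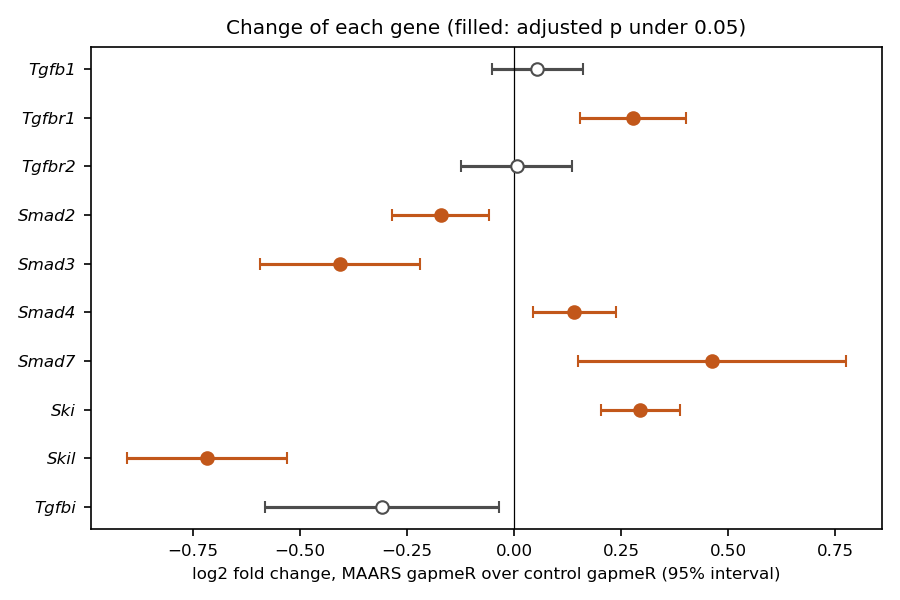
Log2 fold change (MAARS gapmeR minus control gapmeR) of the 10 genes with the 95% confidence interval from edgeR's quasi-likelihood fit, filled where the adjusted p was under 0.05. Skil stood farthest below 0 at -0.72 and Smad7 farthest above at 0.46 with the widest interval, and the intervals of Tgfb1 and Tgfbr2 crossed 0.

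To show the sequence upstream of members that moved, the RefSeq promoter table for GRCm38.p6 was searched, in which 6 of the 10 genes have an entry. Skil has none there. The stretches printed lie upstream of every annotated exon, from 5′ to 3′ on the strand of the gene, and belong to both genes that rose most by adjusted p and to Smad3, which fell. Capitals mark the SMAD box, the 4 letters AGAC or their reverse complement GTCT, searched on both strands. Tgfbr1 is given at chr4:47352972-47353221 (plus strand, 250 bases), Smad3 at chr9:63757995-63758244 (minus strand, 250 bases) and Ski at chr4:155222593-155222785 (minus strand, 193 bases, shortened where an annotated exon begins).
Tgfbr1: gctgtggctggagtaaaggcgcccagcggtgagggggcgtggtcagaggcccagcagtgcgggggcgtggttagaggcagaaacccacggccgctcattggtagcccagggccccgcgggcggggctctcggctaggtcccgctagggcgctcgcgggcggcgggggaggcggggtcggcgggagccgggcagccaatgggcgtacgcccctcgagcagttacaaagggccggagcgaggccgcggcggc
Smad3: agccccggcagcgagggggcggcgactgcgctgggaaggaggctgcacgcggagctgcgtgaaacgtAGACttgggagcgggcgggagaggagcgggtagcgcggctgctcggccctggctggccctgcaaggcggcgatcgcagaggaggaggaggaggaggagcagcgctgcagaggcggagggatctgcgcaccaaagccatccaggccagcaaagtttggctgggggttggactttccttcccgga
Ski: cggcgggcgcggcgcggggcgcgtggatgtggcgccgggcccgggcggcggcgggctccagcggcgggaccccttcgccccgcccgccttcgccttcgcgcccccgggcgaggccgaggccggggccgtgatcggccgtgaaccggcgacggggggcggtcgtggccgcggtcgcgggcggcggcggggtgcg
The Smad3 stretch held 1 box, and the others held 0. Among 32851 promoters in the table, 82.9% hold at least 1 box within 250 bases and 75.6% within 193 bases, so the match in Smad3 is common. All 3 stretches were rich in G and C, at 74.8% for Tgfbr1, 69.2% for Smad3 and 86.5% for Ski, beside a median of 52.4% over all promoters of 250 bases and 51.3% over those cut to 193 bases.

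Genes around the 10 members were then counted in 8 lists written by function. Together 47 of 100 tested list genes were called (47%), near the 45.4% of all genes tested, and each count is to be read against the 21.3% higher and 24% lower of all genes. The list of genes that store, anchor or activate the latent ligand also held the ligand isoforms Tgfb2 and Tgfb3. Of its 17 tested genes, 4 were higher (23.5%) and 1 was lower (5.88%) with the MAARS gapmeR (median log2 fold change 0.21). Thbs1 (thrombospondin 1), a matricellular protein that can release active TGF-β from its latent complex, rose from 379 ± 57.0 to 1018 ± 110 CPM (log2 fold change 1.42, SE 0.109, adjusted p = 5.27e-06). Its values were 299, 379, 410 and 428 CPM in control and 1008, 889, 1016 and 1158 CPM in MAARS gapmeR libraries, far apart. Ltbp3, a latent TGF-β binding protein that anchors the complex in the matrix, rose from 29.3 ± 3.06 to 49.5 ± 2.77 CPM (log2 fold change 0.76, adjusted p = 1.75e-05), and Itgb5, the β5 integrin subunit, rose from 310.1 ± 26.8 to 396.3 ± 25.1 CPM (0.35, adjusted p = 0.0014). Furin, the protease that cleaves the precursor, rose by 0.14 in log2 (adjusted p = 0.0225). The lower gene was Nrros, which holds latent TGF-β1 on the surface of myeloid cells, at 356 ± 14.8 and 317 ± 8.16 CPM (log2 fold change -0.17, adjusted p = 0.0107), a call lost with upper-quartile scaling (-0.10, adjusted p = 0.0677). Furin and Nrros were named after their values had been seen. Without control replicate 7 the list held 7 higher genes, and without control replicate 2 or 5 or MAARS gapmeR replicate 13 it held 2 lower genes.

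Among 11 tested receptors and co-receptors of the wider family, 3 were higher and 2 lower, in all 45.5% beside 45.4% of all genes (median log2 fold change 0.13). Both lower genes belong to the branch of TGF-β and BMP9 signalling that runs through SMAD1. Eng (endoglin), a co-receptor, fell from 108.8 ± 11.3 to 62.9 ± 3.35 CPM (log2 fold change -0.79, SE 0.0732, adjusted p = 1.18e-05), and Acvrl1 (ALK1), the type I receptor it works with, fell from 35.1 ± 2.17 to 25.0 ± 1.10 CPM (-0.49, SE 0.0612, adjusted p = 8.64e-05). Neither gene's groups overlapped. Acvr1b, an activin type I receptor, rose from 35.4 to 44.9 CPM (0.34, adjusted p = 0.00235). The other 2 higher genes, Tgfbr3 (log2 fold change 0.65, adjusted p = 0.0172) and Acvr2b (0.68, adjusted p = 0.04), were named after their values had been seen. Without MAARS gapmeR replicate 13 the list held 1 higher gene, and with upper-quartile scaling 5.

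Of 14 tested further SMADs and SMAD cofactors, 1 was higher and 5 were lower, in all 42.9% beside 45.4% of all genes (median -0.09). With upper-quartile scaling these counts were 3 higher and 2 lower, without MAARS gapmeR replicate 13 there were 3 lower, and without MAARS gapmeR replicate 15 there were 2 higher. The higher gene was Zfyve9 (SARA), the endosomal anchor that presents SMAD2 and SMAD3 to the receptor, which rose from 5.27 to 9.78 CPM (log2 fold change 0.89, SE 0.136, adjusted p = 0.000329). Hgs, which acts with SARA on endosomes, fell from 92.2 to 72.9 CPM (-0.34, adjusted p = 0.000165), and Snw1 (SKIP), which binds SMADs and SKI, fell from 116.2 to 76.2 CPM (-0.61, adjusted p = 3.59e-05). Counts of the last pair are less certain, because 97.2% of the exonic bases of Hgs lie in another gene model of that name on the same strand and 44.2% of those of Snw1 overlap Slirp on the opposite strand. Smad1 also fell (-0.23, adjusted p = 0.0177). Smad5 (-0.06, adjusted p = 0.54) and Smad9 (0.27, adjusted p = 0.629) missed the threshold. Smad1, Smad5 and Smad9 were named after their values had been seen.

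Of 15 tested enzymes and adaptors that turn over receptors and SMADs, 8 were higher (53.3%, beside 21.3% of all genes) and 2 lower (13.3%, beside 24%), with a median log2 fold change of 0.20. Wwp1, a ubiquitin ligase that targets TGFBR1, was at 455, 498, 470 and 427 CPM in control and at 750, 628, 645 and 609 CPM in MAARS gapmeR libraries, with no overlap (log2 fold change 0.51, SE 0.0708, adjusted p = 0.000175). Usp15, a deubiquitinase that stabilizes TGFBR1, was at 93.1, 96.0, 106 and 96.1 CPM in control and at 73.8, 71.8, 70.8 and 66.6 CPM in MAARS gapmeR libraries (-0.47, SE 0.0524, adjusted p = 4.06e-05). Other deubiquitinases of the list went the other way from Usp15 or missed the threshold: Usp4 (0.21, adjusted p = 0.0153) and Usp9x (0.19, adjusted p = 0.0337) rose, and Usp11 had 0.17 (adjusted p = 0.261), all named after their values had been seen. Ldlrad4, a membrane inhibitor of SMAD phosphorylation, rose from 2.08 ± 0.272 to 4.53 ± 0.917 CPM (1.12, adjusted p = 0.000442), although 52.1% of its exonic sequence is shared with an antisense gene. Of the SMAD ubiquitin ligases named after their values had been seen, Nedd4l (0.44, adjusted p = 0.000614) and Smurf1 (0.21, adjusted p = 0.00965) rose, and Smurf2 stood at 0.03 in log2 (adjusted p = 0.736).

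In the arm of the pathway that runs through the kinase TAK1 without SMADs, 2 of 11 tested genes were higher and 3 lower, in all 45.5% beside 45.4% of all genes (median -0.09). Traf6, the ubiquitin ligase that couples the receptors to TAK1, fell by 0.25 in log2 (adjusted p = 0.00449), Map2k4, a kinase downstream of TAK1, fell by 0.25 (adjusted p = 0.00112), and Tab1, a TAK1 partner, rose by 0.33 (adjusted p = 0.0104). The list held 1 higher gene without control replicate 6 or 7 or MAARS gapmeR replicate 9 or 11. Of 10 tested activins, BMPs, GDFs and their antagonists, 2 were higher and 1 lower (30% in all, beside 45.4%), although 5 were higher without control replicate 7, and at most 1 without any of the other 7 libraries. Gdf15, a stress-induced member of the family, fell from 65.0 to 50.6 CPM (-0.36, adjusted p = 0.00678). The higher genes were Fst (0.304 and 0.81 CPM, adjusted p = 0.0218) and Gdf3 (4.01 and 5.10 CPM, adjusted p = 0.0353), whose calls were lost in 4 and 7 of the 8 fits that each left out 1 library. For Fst these were the fits without control replicates 2, 5 and 6 and MAARS gapmeR replicate 13 (log2 fold change 1.15 to 1.33 in these, 1.39 with all libraries), and for Gdf3 all but that without control replicate 6.

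**Figure D4:**
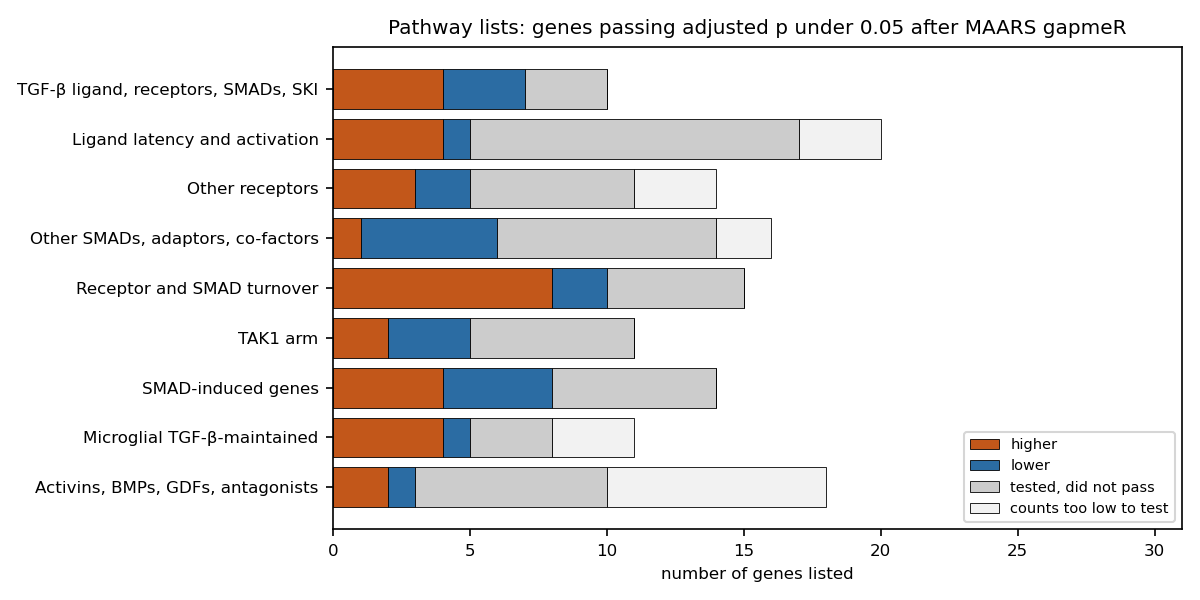
Number of genes in each list that were higher, lower or did not pass at an adjusted p under 0.05 with the MAARS gapmeR, or had counts too low to test, with the 10 TGF-β genes in the top bar. Genes of receptor and SMAD turnover held 8 higher and 2 lower, further SMADs and cofactors 1 higher and 5 lower, and SMAD target genes 4 of each.

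Among 14 genes that SMADs are known to induce in various cells, 4 were higher and 4 lower, 28.6% each beside 21.3% and 24% of all genes (median log2 fold change -0.10). The lower genes were regulators of growth and stress: Gadd45b, an adaptor of stress kinases, fell from 91.7 ± 14.4 to 45.3 ± 2.14 CPM (log2 fold change -1.02, SE 0.0968, adjusted p = 1.38e-05). Cdkn1a (p21), an inhibitor of cell cycle kinases, fell from 343.4 to 229.7 CPM (-0.58, adjusted p = 5.83e-05), and Id2, an inhibitor of DNA binding, fell from 249.5 to 132.1 CPM (-0.92, adjusted p = 0.000466). Junb, an AP-1 subunit named after its value had been seen, fell by 0.39 in log2 (adjusted p = 0.00395).

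The higher genes of that list described here, all named after their values had been seen, are known for contractile and matrix-producing cells. Acta2 (smooth muscle actin) was at 61.2, 51.0, 64.7 and 95.3 CPM in control and at 96.3, 129, 172 and 118 CPM in MAARS gapmeR libraries (log2 fold change 0.92, adjusted p = 0.00272). Ctgf rose from 38.0 ± 12 to 64.0 ± 14.4 CPM (0.75, adjusted p = 0.00972), and Tagln rose from 10.7 ± 3.53 to 18.0 ± 5.60 CPM (0.75, adjusted p = 0.0218). The groups of Ctgf and Tagln overlapped. For Ctgf, control replicate 7 (55.2 CPM) lay above MAARS gapmeR replicate 9 (50.3 CPM). For Tagln, control replicate 7 (15.9 CPM) lay above MAARS gapmeR replicates 9 (13.5 CPM) and 15 (15.6 CPM). For Acta2, Ctgf and Tagln alike, control replicate 7 was the highest control library and MAARS gapmeR replicate 13 the highest MAARS gapmeR library. The same 2 libraries were the highest of their groups in the summed collagens Col1a1, Col1a2 and Col3a1, which fibroblasts make, at 616, 455, 745 and 1036 CPM in control and 713, 913, 1224 and 763 CPM in MAARS gapmeR libraries. With the log2 of this sum added to the fit, the log2 fold changes were 0.62 for Acta2 (adjusted p = 3.23e-05), 0.47 for Ctgf (0.00186) and 0.41 for Tagln (0.0176). Tagln lost its call without control replicate 5 (adjusted p = 0.0641), control replicate 6 (0.0618) or MAARS gapmeR replicate 13 (0.0632), and 67.9% of its exonic sequence, and 23.2% of that of Ctgf, is shared with an antisense gene.

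**Figure D5:**
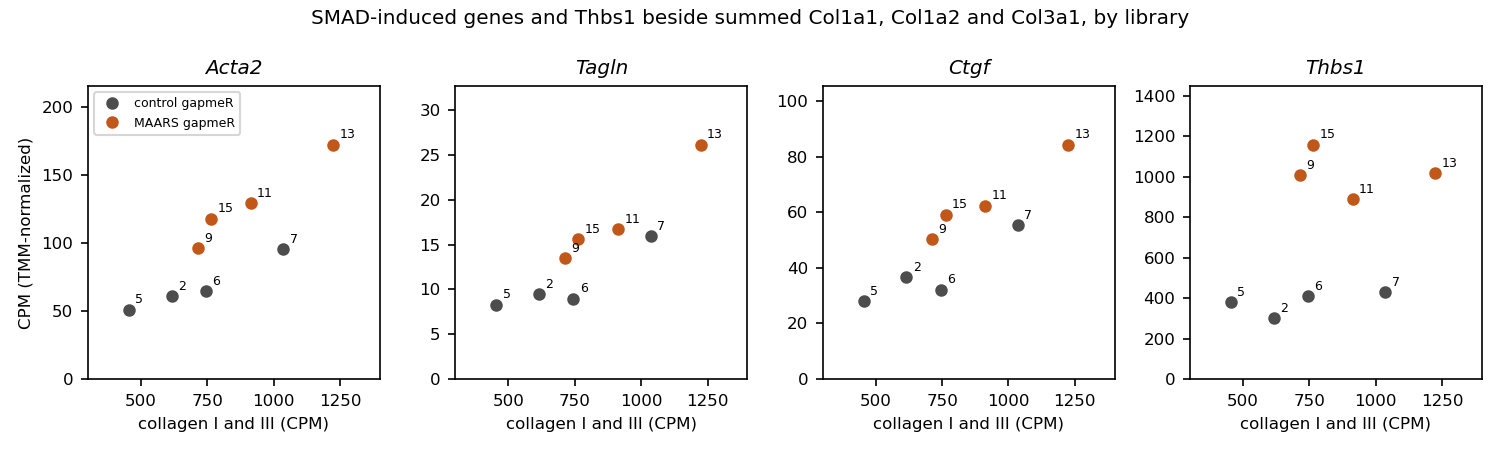
CPM of Acta2, Tagln, Ctgf and Thbs1 in each library, marked with its replicate number, against the summed CPM of Col1a1, Col1a2 and Col3a1, in 2 colours for control and MAARS gapmeR libraries. Control replicate 7 (1036 CPM of collagen) and MAARS gapmeR replicate 13 (1224 CPM) were the highest of their groups in Acta2, Ctgf and Tagln.

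With the same term for collagen the TGF-β genes themselves gave 7 calls, 3 higher and 4 lower. This fit called 2944 genes higher and 3045 lower among all 13051 tested. Smad7 lost its call (log2 fold change 0.39, adjusted p = 0.0526) and Tgfbi gained one (-0.36, adjusted p = 0.0413), and Skil was at -0.81 and Thbs1 at 1.39. Platelet markers moved with the groups as well. Their sum was 236 to 314 CPM in control and 504 to 604 CPM in MAARS gapmeR libraries, nearly all of it Pf4 (266.6 and 534.1 CPM), and 2 of 4 tested markers were called higher, Pf4 and Ppbp (1.04 and 2.05 CPM, log2 fold change 0.96, adjusted p = 0.0106). The other tested markers were Itga2b at 1.22 and 1.20 CPM and Gp1ba at 0.626 and 0.724 CPM, and Gp9 was too low to test. The part of these markers in the results was not tested. The summed neutrophil markers were at 84.4 to 244 CPM and 88.8 to 141 CPM in overlapping ranges.

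Of 8 tested genes that depend on TGF-β in microglia, the macrophages of the brain, 4 were higher and 1 lower in these BMDMs, 50% and 12.5% beside 21.3% and 24% of all genes (median log2 fold change 0.22). Gpr34, a lysophosphatidylserine receptor, rose from 8.78 to 24.0 CPM (log2 fold change 1.45, adjusted p = 4.79e-06), and Fcrls rose from 37.6 to 76.3 CPM (1.02, adjusted p = 4.79e-05). Without MAARS gapmeR replicate 13, 2 genes of the list were higher.

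The genes whose log2 CPM followed the members most closely over the 8 libraries are given as a description only, since all points share the 2 groups. For Tgfb1 these were Actg1 (Pearson r = 0.971), Pdcd6ip (0.957) and Tmem256 (0.953), for Tgfbr1 they included Dctn1 (0.993) and Iars2 (0.992), and for Smad3 they were Phf23 (0.990), Wbp1l (0.986) and Tmbim4 (0.985).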

How the data were processed

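RNA-Seq counts of 8 mouse BMDM libraries, 4 per group by their labels, were used. The authors trimmed reads with Trimmomatic 0.36, aligned them to mm10 with STAR 2.5.2b and counted them per gene with featureCounts of Subread 1.5.2 and Ensembl 79 genes, and the deposited values are these raw counts, not normalized. Whether counting used strand, how multimapping reads were handled, and whether reads or fragments were counted were not given in the sources used here. Annotation came from GENCODE M21 on GRCm38.

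Genes were filtered with filterByExpr (minimum count 10, minimum total count 15) and tested with edgeR 4.0.16 in R 4.3.3 (TMM factors, glmQLFit, glmQLFTest), and p-values were adjusted (Benjamini-Hochberg) over all 13051 genes that passed. TMM factors were 0.955 to 1.000 in control and 1.015 to 1.030 in MAARS gapmeR libraries, so they did not overlap between the groups. CPM values were TMM-normalized, and levels per kb were divided by merged exonic length. Depth, 19287279 to 24541205 counts per library, limits the precision, and replicates of a group differed by more than sampling noise (chi-square 4.26 to 15.4 per gene). The procedure was tested on simulated data. Ratios within libraries were compared by exact permutation.

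Alternatives were RLE and upper-quartile factors, DESeq2 1.42.0, limma-voom 3.58.1, no filter, a filter at a mean of 10 counts, each library left out, an adjusted p under 0.01, and 1 count added for the ratios. The collagen term was added after seeing the data.

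The members and lists were chosen with earlier results of these data known. Genes named were the members, MAARS, the 3 with the smallest p in each list, and the 3 most correlated with Tgfb1, Tgfbr1 and Smad3. Others are marked as named after their values were seen, apart from Tgfb2, Tgfb3 and some markers of cell types, which this rule does not name. Some genes that this rule names are not reported here.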

Additional observations from a re-analysis of the deposited data

Results flagged for a closer look

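In 88 groups of 4 libraries (40 genes of those named and the 4 ratios, in each group), 3 had 1 library far from the others, where chance marks about 1 in 20. Map2k4 was at 79.4 CPM in control replicate 6 and at 72.6 to 73.7 CPM in the other control libraries. Gdf15 was at 61.5 CPM in MAARS gapmeR replicate 15 and at 45.7 to 48.4 CPM in the other MAARS gapmeR libraries. Tagln was at 15.9 CPM in control replicate 7, the control library with the most collagen transcript, and at 8.30 to 9.47 CPM in the other control libraries. None of the 10 TGF-β genes stood out in this way.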

How the results depend on the processing

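Tgfbr1, Smad3, Ski and Skil kept their direction and their call in all 7 other fits and all 8 that left out 1 library. At an adjusted p under 0.01 these 4 genes remained called, 2 of them higher, and 29 of 47 pathway list genes did. The share of all genes called at that threshold was not counted, so these counts have no background to be read against. Upper-quartile factors moved the split over all genes to 3622 higher and 2379 lower (60.4% higher, beside 47.0% with TMM), and Smad2 to -0.11. Smad4 was not called with no filter (0.14), nor Smad7 with the collagen term (0.39). Tgfbi passed with DESeq2 (-0.31), no filter (-0.31) and the collagen term (-0.36). Tgfbr2 changed sign with the collagen term (-0.024). Leaving out 1 library gave -0.034 to 0.043 for Tgfbr2, -0.40 to -0.20 for Tgfbi, 0.12 to 0.16 for Smad4, 0.36 to 0.53 for Smad7, 0.21 to 0.36 for the log2 ratio of Tgfbr1 to Tgfbr2 (exact permutation p = 0.0286 without control replicate 2) and 0.73 to 1.00 for that of Smad7 to Smad3 (p = 0.0571 without MAARS gapmeR replicate 9, 11 or 15). In each case the cause was not tested. The exact test of 3 against 4 libraries cannot go below 0.0286. No paired analysis was possible because the groups share no replicate numbers. Among the 10 TGF-β genes Smad7 had the lowest counts.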
